A study of Mus musculus with 6 samples.

Results

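The matrix metalloproteinases are zinc-dependent proteinases that cut the proteins of the extracellular matrix. The 10 genes described here, Mmp2, Mmp3, Mmp8, Mmp9, Mmp11, Mmp13, Mmp14, Mmp16, Mmp19 and Mmp25, were chosen by gene name from the 33971 genes of the deposited table, and all 10 were found. They were measured by RNA sequencing of articular cartilage from wildtype mice, with 3 libraries at 2 months of age and 3 at 18 months. The labels list no treatment. The comparison asks how expression in articular cartilage differs with age. The study's methods describe male mice; the labels give no strain and do not say whether a library came from 1 mouse or from several, so p-values measure only the spread between these libraries.

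Most of these enzymes are made as inactive precursors, which are opened by other proteinases, and they are held in check by the tissue inhibitors of metalloproteinases. Collagenases make the first cut in fibrillar collagen, gelatinases degrade the unwound chains, stromelysins attack proteoglycans and activate other family members, and membrane-type enzymes act at the cell surface. In cartilage, MMP13 is best known as the collagenase of hypertrophic chondrocytes and of osteoarthritis, whereas MMP8, MMP9 and MMP25 are well known from the granules and membranes of neutrophils, and MMP9 also from osteoclasts.

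The libraries held 48171507 to 59085179 counts. Several features of whole libraries divided with age. A list of 16 chondrocyte markers, of which Prg4 was the most abundant, took 7.54% to 8.87% of the counts at 2 months and 0.195% to 0.846% at 18 months, and all 16 were lower in every 18-month library than in every 2-month library. A list of 14 neutrophil markers, with S100a9 the most abundant, took 0.00131% to 0.377% at 2 months and 4.24% to 4.56% at 18 months, and all 14 were higher in every 18-month library. The same held for all 10 monocyte and macrophage markers (0.00267% to 0.129% against 0.706% to 0.903%) and all 6 erythroid markers. No gene of the chondrocyte, neutrophil, monocyte and macrophage or erythroid lists was at 0 in all libraries of an age. Within the 2-month group, replicate 2 stood apart, with the highest shares of the neutrophil, osteoclast (0.430% against 0.00990% and 0.0836%), osteoblast and osteocyte (1.74% against at most 0.581%) and endothelial (0.0238% against 0.00100% and 0.00364%) lists. Xist, which is transcribed from the inactive X chromosome, had 88239 to 102417 counts at 2 months and 11 to 30 at 18 months. The 2-month libraries thus go against the description of male mice, and age and sex cannot be told apart in any result below. In bulk tissue, fewer cells of a type and less RNA per cell cannot be told apart either.

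The upstream sequences of Mmp13, Mmp3, Mmp8 and Mmp25 are shown first. Those of Mmp14 and of Mmp11, which was also lower in every 18-month library, were searched but are not printed. RefSeq start sites on GRCm38.p6 were listed for 6 of the 10 members (Mmp3, Mmp8, Mmp11, Mmp13, Mmp14 and Mmp25), and not for Mmp2, Mmp9, Mmp16 and Mmp19. The 250 bases before the start are printed for Mmp13 (chr9:7272264-7272513, plus strand) and Mmp3 (chr9:7445572-7445821, plus strand), whose mean levels were lower at 18 months, and for Mmp8 (chr9:7558179-7558428, plus strand) and Mmp25 (chr17:23645270-23645519, minus strand), whose levels were higher in every 18-month library. Each reads 5′ to 3′ toward the gene, and capitals mark the AP-1 word TGACTCA or its reverse complement TGAGTCA, and the RUNX word TGTGGT or its reverse complement ACCACA.
Mmp13: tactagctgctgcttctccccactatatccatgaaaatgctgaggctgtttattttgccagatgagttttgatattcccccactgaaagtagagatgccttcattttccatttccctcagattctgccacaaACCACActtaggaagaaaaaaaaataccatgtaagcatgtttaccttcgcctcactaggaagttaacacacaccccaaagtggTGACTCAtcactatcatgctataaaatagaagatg
Mmp3: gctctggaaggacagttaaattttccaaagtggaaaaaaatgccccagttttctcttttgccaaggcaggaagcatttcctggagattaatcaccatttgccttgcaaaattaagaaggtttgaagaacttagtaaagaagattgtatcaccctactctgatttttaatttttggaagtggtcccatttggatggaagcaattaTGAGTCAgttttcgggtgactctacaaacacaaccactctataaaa
Mmp8: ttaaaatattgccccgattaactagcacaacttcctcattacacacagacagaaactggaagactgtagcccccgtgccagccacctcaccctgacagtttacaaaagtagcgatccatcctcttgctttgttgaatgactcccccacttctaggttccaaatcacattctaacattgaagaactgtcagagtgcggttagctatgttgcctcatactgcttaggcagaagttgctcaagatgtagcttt
Mmp25: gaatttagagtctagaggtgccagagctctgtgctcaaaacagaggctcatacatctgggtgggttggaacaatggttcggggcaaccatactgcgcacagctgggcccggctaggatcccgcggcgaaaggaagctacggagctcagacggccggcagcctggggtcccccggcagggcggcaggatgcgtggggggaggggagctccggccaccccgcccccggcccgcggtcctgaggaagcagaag
AP-1 and RUNX2 are textbook regulators of Mmp13. Its window held 1 AP-1 word, which began 35 bases before the start, and 1 RUNX word, which began 118 bases before it. The Mmp3 window held 1 AP-1 word, 46 bases before the start, and no RUNX word. Neither word was in the windows of Mmp8, Mmp11 and Mmp25, and Mmp14 held 1 RUNX word at 114 bases. Over all 32851 windows of this length, 4.46% held the AP-1 word and 14.0% the RUNX word. The ETS word AGGAAG or CTTCCT (29.5% of all windows) was found in 5 of the 6 windows, all but that of Mmp11, the TATA word TATAAA or TTTATA (12.4%) in those of Mmp3 and Mmp13, and the C/EBP word TTGCGCAA (0.164%) in none. Both strands were searched, and no match overlapped another. Such matches describe letters only.

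With the counts of all genes fitted in edgeR, 2 of the 10 members were called lower in 18-month cartilage (Mmp11 and Mmp13) and 0 were called higher. A gene was called at a Benjamini-Hochberg adjusted p-value below 0.05 and a log2 fold change of 18-month against 2-month cartilage beyond 1 in either direction. Of the 20397 genes tested, 36.3% were called, with 14.9% higher and 21.3% lower, and 51.3% passed the adjusted p-value at any fold, as did 2 members. At an unadjusted p-value below 0.05, 0 members were higher and 2 lower in edgeR. At that same unadjusted limit, 6 members passed in DESeq2 and 6 in limma on log2(FPKM + 0.1), with 3 higher in each. With the limits for a call, DESeq2 called Mmp8 higher and 3 members lower (Mmp3, Mmp11 and Mmp13). Limma on log2(FPKM + 0.1) called 2 higher (Mmp8 and Mmp25) and the same 3 lower. Across the members the median log2 fold change was -0.82, against -0.02 over all genes tested. In edgeR with 1 library left out at a time, the count called higher changed only without 2-month replicate 2. Without it, 2 members were called higher (Mmp8 and Mmp25) and the same 2 lower, where 44.6% of all 21489 genes tested were called, 23.3% higher and 21.3% lower, and the members' median was 0.26.

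The level of each gene, rather than the difference between ages, is given in FPKM, which scales counts by transcript length and by library. The FPKM of 5 members did not overlap between the ages. Mmp8, Mmp19 and Mmp25 were higher in every 18-month library, and Mmp11 and Mmp13 lower in every one. Of all 20397 genes tested, 68.4% did not overlap.

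**Figure D1:**
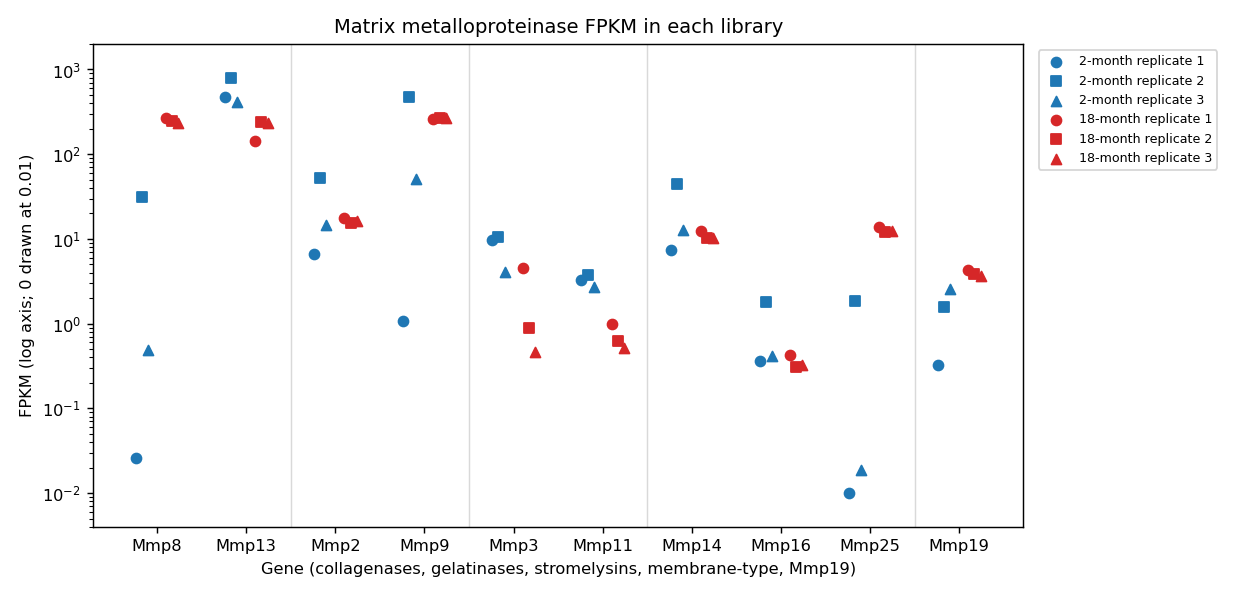
FPKM of the 10 matrix metalloproteinase genes (log axis, a value of 0 drawn at 0.01) in each of the 3 libraries at 2 months (blue) and the 3 at 18 months (red), with the marker shape giving the replicate. The 18-month libraries lie close together for Mmp8, Mmp9 and Mmp25, while the 2-month libraries of these genes spread widely, with replicate 2 the highest.

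Mmp13 (ENSMUSG00000050578, chromosome 9, 7272514 to 7283331, plus strand) encodes the main collagenase of mouse cartilage and bone. Its FPKM was 470.2, 799 and 418 in 2-month replicates 1, 2 and 3 and 142, 240.4 and 235 in 18-month replicates 1, 2 and 3. All 18-month libraries lay below all 2-month libraries, and replicate 1 was the lowest of its age. The mean was 562 ± 207 at 2 months and 206 ± 55.6 at 18 months (SD, n = 3 each), and the log2 fold change was -1.50 (standard error 0.34, edgeR adjusted p = 0.014). Leaving out 1 library at a time gave -1.20 to -1.66, and Mmp13 was called in each of those fits, but a test against a fold change of 2 did not pass (edgeR adjusted p = 0.11). The 5 listed markers of hypertrophic chondrocytes, of which Spp1 was the most abundant, were also lower at 18 months. Their summed share was 1.17% to 1.31% of counts at 2 months and 0.193% to 0.290% at 18 months, and all 5 were lower in every 18-month library. Within an age they did not follow Mmp13. Their share was 1.31%, 1.27% and 1.17% in 2-month replicates 1, 2 and 3. It was highest in 18-month replicate 1 (0.290% against 0.195% and 0.193%), where Mmp13 was lowest. The part of these markers in the result was not tested. Per 1000 counts of that list, Mmp13 had 109, 190.1 and 111 counts in the 2-month libraries and 149, 375 and 373 in the 18-month libraries. The ratio to the hypertrophic list was thus higher in 18-month replicates 2 and 3 than in any 2-month library, although the level was lower. Osteoblasts also make Mmp13, which had 286, 139 and 224 counts per 1000 counts of the osteoblast and osteocyte list at 2 months and 125, 220.2 and 213 at 18 months. That ratio overlapped between the ages.

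Mmp8 (ENSMUSG00000005800, chromosome 9, 7558456 to 7568485, plus strand) encodes the collagenase stored in neutrophil granules. Its FPKM was 0.0261, 31.6 and 0.493 in the 2-month libraries and 267, 245 and 234 in the 18-month libraries, from 4, 4479 and 68 counts and from 43579, 37404 and 36164 counts. Every 18-month library was above every 2-month library, and replicate 2 held nearly all of the 2-month counts. Its log2 fold change of 4.55 (standard error 2.14, edgeR adjusted p = 0.12) was not called. Without 2-month replicate 2 it was 9.76 (edgeR adjusted p = 0.00090) and called, and it was also called with DESeq2 (log2 fold change 4.63, adjusted p = 0.026).

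The neutrophil list, which holds no metalloproteinase, moved with Mmp8 across the libraries. It took 0.00131%, 0.377% and 0.00585% of counts in 2-month replicates 1, 2 and 3 and 4.24%, 4.56% and 4.52% in the 18-month replicates. Per 1000 counts of this list, Mmp8 had 6.32, 23.0 and 24.1 counts in the 2-month libraries and 17.4, 14.9 and 14.4 in the 18-month libraries. The first of these ratios rests on 4 counts. The part of neutrophil RNA in the difference was not tested.

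Taken within each library, which needs no scaling between libraries, the share of Mmp8 in the summed level of Mmp8 and Mmp13 was higher in every 18-month library. Mmp8 made up 0.00556%, 3.80% and 0.118% of the summed FPKM of Mmp8 and Mmp13 in the 2-month libraries and 65.4%, 50.5% and 49.9% in the 18-month libraries. The difference in the mean was 53.9 percentage points, and the groups did not overlap. An exact two-sided permutation test gave p = 0.1, the smallest value that 3 libraries against 3 allow.

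Mmp9 (ENSMUSG00000017737, chromosome 2, 164940780 to 164955850, plus strand) encodes gelatinase B, which is made by osteoclasts and neutrophils among other cells. It had an FPKM of 1.08, 472 and 51.0 in the 2-month libraries and of 262, 265 and 267 in the 18-month libraries. The 2-month values spread on both sides of the 18-month values, with replicate 2 the highest library of all. The 18-month libraries differed by little, with a mean of 265 ± 2.84 (SD, n = 3), against 175 ± 259 (SD, n = 3) at 2 months. Between the ages this gave a log2 fold change of 0.60 (standard error 1.57, edgeR adjusted p = 0.77). It was 3.23 without 2-month replicate 2 (standard error 1.44, edgeR adjusted p = 0.10) and 0.02 without 2-month replicate 1, and Mmp9 was called in none of the fits.

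The order of the 2-month libraries in Mmp9 was also that of the summed share of the 8 osteoclast markers, with Ctsk the most abundant. Every other marker list had this order too, except those of chondrocytes and hypertrophic chondrocytes. The osteoclast list took 0.00990%, 0.430% and 0.0836% of counts in the 2-month libraries and 0.183%, 0.227% and 0.225% in the 18-month libraries, with 1 of the 8 genes higher in every 18-month library. Per 1000 counts of the osteoclast list, Mmp9 had 44.3, 440.3 and 252 counts at 2 months and 577, 471 and 482 at 18 months. Per 1000 counts of the neutrophil list the values were 335, 502 and 3594 at 2 months and 24.8, 23.5 and 23.9 at 18 months. The ratio to the neutrophil list was thus far higher in each 2-month library, unlike that of Mmp8, and the part of either cell type was not tested.

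**Figure D2:**
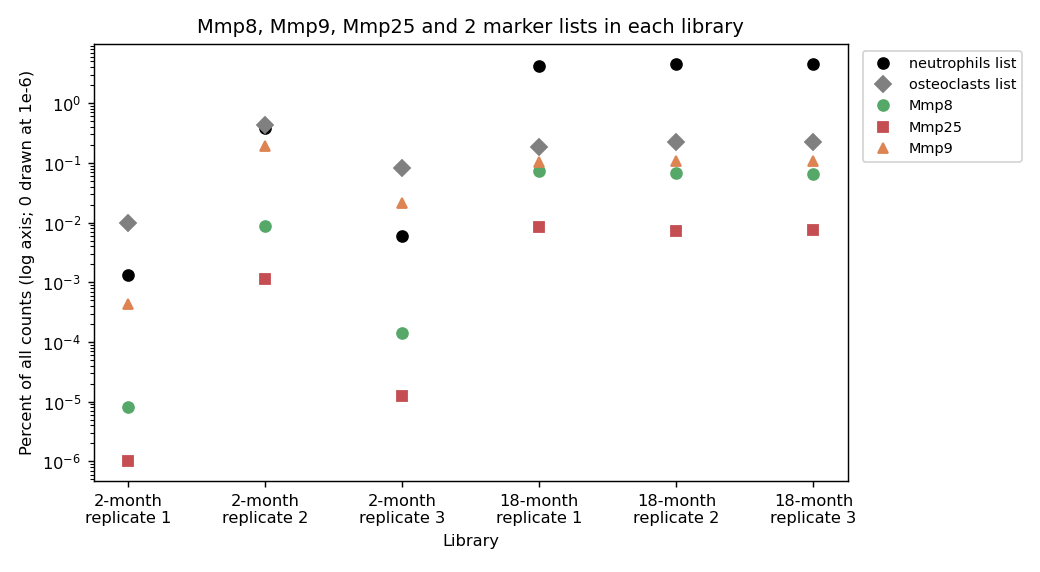
Percent of all counts (log axis, 0 drawn at 1e-6) taken by the neutrophil and osteoclast marker lists and by Mmp8, Mmp9 and Mmp25 in each library. In 2-month replicates 1, 2 and 3 the neutrophil list took 0.00131%, 0.377% and 0.00585%, and Mmp8 and Mmp25 are lowest in replicate 1, where Mmp25 had no count, and highest in replicate 2.

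Mmp2 (ENSMUSG00000031740, chromosome 8, 92827291 to 92853420, plus strand) encodes gelatinase A, which fibroblasts and other mesenchymal cells make and which MMP14 activates. FPKM values were 6.59, 52.7 and 14.7 at 2 months and 17.4, 15.4 and 16.3 at 18 months. The 18-month values lay within the range of the 2-month values. With all libraries the log2 fold change was -0.62 (standard error 0.69, edgeR adjusted p = 0.48), and it turned to 0.51 (edgeR adjusted p = 0.24) without 2-month replicate 2. Within each library, Mmp9 made up 14.1%, 90.0% and 77.6% of the summed FPKM of Mmp2 and Mmp9 at 2 months and 93.8%, 94.5% and 94.2% at 18 months. The difference in the mean was 33.6 percentage points (exact two-sided permutation test, p = 0.1, the smallest possible), and without 2-month replicate 1 it was 10.4.

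Mmp3 (ENSMUSG00000043613, chromosome 9, 7445822 to 7455975, plus strand) encodes stromelysin 1, which cuts proteoglycans and activates collagenase precursors. Its FPKM was 9.84, 10.5 and 4.11 at 2 months and 4.51, 0.897 and 0.457 at 18 months. The ages overlapped through 18-month replicate 1, which lay above 2-month replicate 3. Mmp3 was not called, with a log2 fold change of -2.15 (standard error 0.90, edgeR adjusted p = 0.092). It was -3.62 (edgeR adjusted p = 0.012) and called without 18-month replicate 1, the library in which the chondrocyte list was the highest of its age, at 0.846% against 0.196% and 0.195%. The part of the chondrocyte content in this was not tested.

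Mmp11 (ENSMUSG00000000901, chromosome 10, 75923222 to 75936496, minus strand) encodes stromelysin 3, which is activated inside the cell by furin. FPKM values were 3.23, 3.75 and 2.67 at 2 months and 0.989, 0.630 and 0.514 at 18 months. Libraries of an age lay close together and the ages did not overlap. Mmp11 fell, with a log2 fold change of -2.24 (standard error 0.30, edgeR adjusted p = 0.0028), and it was called in each fit with 1 library left out, from -2.05 to -2.52, and in each other setting. The chondrocyte list, at 7.54% to 8.87% of counts at 2 months and 0.195% to 0.846% at 18 months, was lower as well, and its part was not tested. Mmp11 had 0.136, 0.142 and 0.0979 counts per 1000 counts of that list at 2 months and 0.372, 1.05 and 0.848 at 18 months, so this ratio was higher in every 18-month library. Mmp11 shares its locus with Chchd10 on the opposite strand, and the strand setting of the counting is not given in the sources used here.

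**Figure D3:**
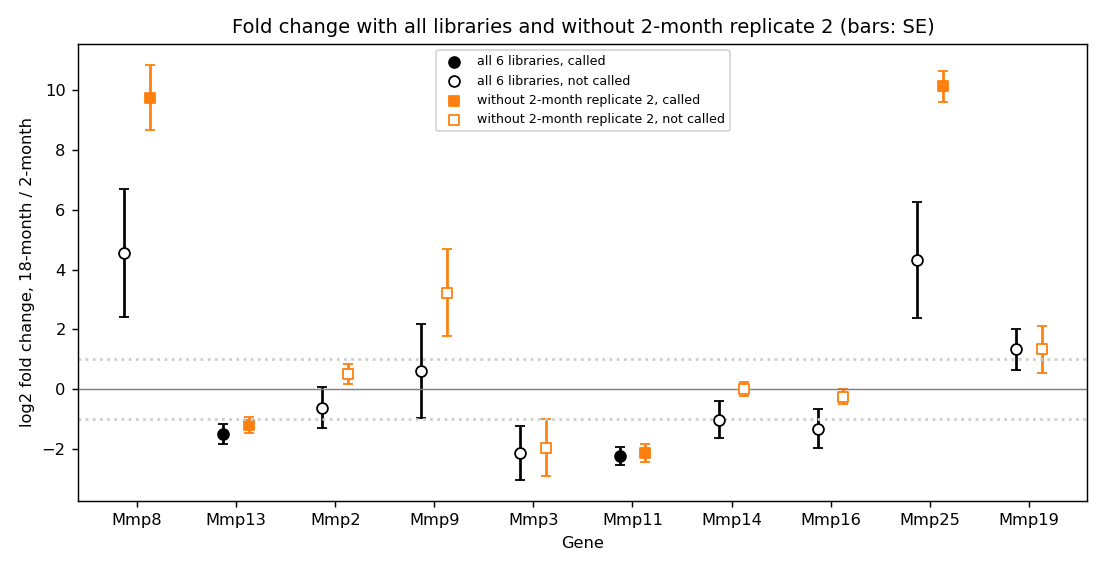
Log2 fold change of 18-month against 2-month cartilage with its standard error for each gene, with all 6 libraries (black) and without 2-month replicate 2 (orange), and filled markers for called genes. Mmp11 and Mmp13 are filled in both, and Mmp8 and Mmp25 rise from 4.55 and 4.33 to 9.76 and 10.13 and are filled only without that library.

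Of the 3 membrane-type members, Mmp14 (ENSMUSG00000000957, chromosome 14, 54431612 to 54441265, plus strand) encodes MT1-MMP, a transmembrane collagenase that activates MMP2. Its FPKM was 7.42, 45.0 and 12.8 at 2 months and 12.3, 10.1 and 10.3 at 18 months, so the ages overlapped. It was not called, with a log2 fold change of -1.03 (standard error 0.62, edgeR adjusted p = 0.21), or of 0.0061 without 2-month replicate 2. Mmp16 (ENSMUSG00000028226, chromosome 4, 17852893 to 18117457, plus strand) encodes MT3-MMP, a transmembrane relative. It was low throughout, with an FPKM of 0.366, 1.82 and 0.417 at 2 months and 0.432, 0.305 and 0.321 at 18 months, again with overlap. For Mmp16 the log2 fold change was -1.32 (standard error 0.64, edgeR adjusted p = 0.13), and -0.26 without 2-month replicate 2. In Mmp2, Mmp14 and Mmp16 alike, 2-month replicate 2 lay far above the other 5 libraries, and this was also the library with the highest osteoblast and osteocyte list (1.74% of counts, against 0.332% to 0.581% in the other 5) and endothelial list. The part of those lists in the values was not tested.

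Mmp25 (ENSMUSG00000023903, chromosome 17, 23628311 to 23645277, minus strand) encodes MT6-MMP or leukolysin, which is anchored to the membrane of neutrophils by a lipid. It had 0, 583 and 6 counts at 2 months against 4907, 4030 and 4155 at 18 months, and the 0 allows a share of up to 6.21e-06% of counts in that library. FPKM values were 0, 1.88 and 0.0186 at 2 months and 13.8, 12.1 and 12.3 at 18 months, without overlap. Mmp25 was not called with all libraries (log2 fold change 4.33, standard error 1.94, edgeR adjusted p = 0.11). Without 2-month replicate 2 it was 10.13 (edgeR adjusted p = 8.8e-05) and called. Per 1000 counts of the neutrophil list, Mmp25 had 0, 2.99 and 2.13 counts at 2 months and 1.96, 1.60 and 1.65 at 18 months. The ratios in 2-month replicates 2 and 3 thus lay near those of the 18-month libraries, as for Mmp8, and the part of neutrophil RNA was not tested. Of the summed FPKM of Mmp14, Mmp16 and Mmp25, Mmp25 made up 0%, 3.85% and 0.141% at 2 months and 51.9%, 53.7% and 53.6% at 18 months (difference in the mean 51.7 percentage points, exact two-sided permutation test, p = 0.1, the smallest possible).

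Mmp19 (ENSMUSG00000025355, chromosome 10, 128790910 to 128800824, plus strand) encodes a secreted enzyme that cuts basement membrane proteins and aggrecan. Its FPKM was 0.322, 1.56 and 2.55 at 2 months and 4.25, 3.89 and 3.62 at 18 months. Every 18-month library was higher, and replicate 3 was the highest of the 2-month libraries, unlike in the other members, where it was replicate 2. It was not called, at a log2 fold change of 1.33 (standard error 0.68, edgeR adjusted p = 0.15). It ranged from 0.86 to 2.04 with 1 library left out, and limma with a pseudocount of 1 called it (log2 fold change 1.10, adjusted p = 0.036). Genes on the opposite strand overlap Mmp19 (Tmem198b and Gm47093), Mmp16 and Mmp25, so the same limit on strand holds for these as for Mmp11.

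Set side by side, the order of the members by mean FPKM differed between the ages. At 2 months it was Mmp13, Mmp9, Mmp2, Mmp14, Mmp8, Mmp3, Mmp11, Mmp19, Mmp16 and Mmp25, from 562 to 0.631. Of neighbours in that order, only Mmp3 and Mmp11, and Mmp11 and Mmp19, did not overlap in their 3 libraries. At 18 months the order was Mmp9, Mmp8, Mmp13, Mmp2, Mmp25, Mmp14, Mmp19, Mmp3, Mmp11 and Mmp16, from 265 to 0.353. There, Mmp9, Mmp8 and Mmp13 overlapped with their neighbours among these 3, and Mmp2 was separate from both neighbours. Mmp13 alone took 94.2%, 56.3% and 82.5% of the members' summed FPKM in the 2-month libraries and 19.6%, 30.3% and 30.2% in the 18-month libraries. Mmp8 and Mmp9 took 36.9% and 36.1% in 18-month replicate 1, 30.9% and 33.4% in replicate 2 and 30.0% and 34.2% in replicate 3. The sum itself was 499, 1420 and 506 FPKM at 2 months and 724, 794 and 780.2 at 18 months, so the total of 2-month replicate 2 lay above all others and those of replicates 1 and 3 below all 18-month libraries.

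**Figure D4:**
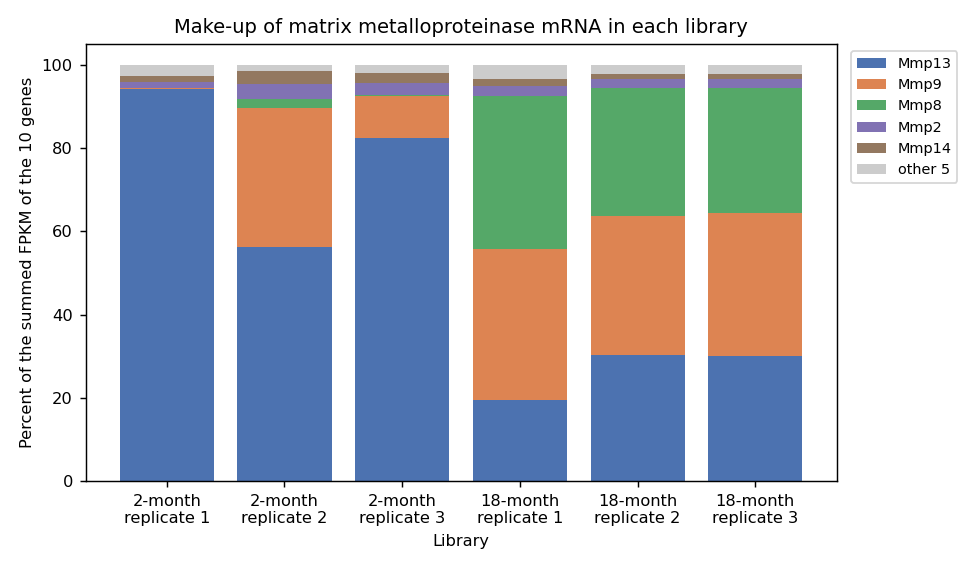
Percent of the summed FPKM of the 10 genes taken by each gene in each library, as stacked bars, with Mmp3, Mmp11, Mmp16, Mmp19 and Mmp25 drawn together. Mmp13 fills 94.2%, 56.3% and 82.5% of the 2-month bars, and Mmp13, Mmp9 and Mmp8 each fill between 19.6% and 36.9% of the 18-month bars.

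Mmp3, Mmp8 and Mmp13 lie in 1 cluster of metalloproteinase genes on chromosome 9. Its genes with a row in the table are, in order, Mmp13, Mmp12, Mmp3, Mmp1a, Mmp10, Mmp8 and Mmp27. They span 309 kb from 7272514 to 7581415. The listed family members Mmp1b, Mmp7 and Mmp20 had no row and were not used to set this span. The genes with a row did not move as a block. Mmp13, the first of them, was called lower, and Mmp27, the last of them, was called higher. Mmp27 (ENSMUSG00000070323), a family member of little-known substrates, had 5, 10 and 0 counts at 2 months and 103, 162 and 154 at 18 months (log2 fold change 4.56, standard error 0.98, edgeR adjusted p = 0.012). It lies 2910 bases beyond the end of Mmp8 on the same strand. Its counts per 1000 counts of Mmp8 were 2.36, 4.33 and 4.26 in the 18-month libraries and 2.23 in 2-month replicate 2, while 2-month replicates 1 and 3 held only 4 and 68 counts of Mmp8. Whether its reads begin in Mmp8 was not tested. Mmp10, which encodes stromelysin 2, had 4, 17 and 15 counts at 2 months and 0 in each 18-month library, where a count of 0 allows up to 3 counts per library. It did not pass the filter on low counts, and neither did Mmp1a, which had 7 counts in 18-month replicate 2 and 0 elsewhere. Mmp12, the macrophage elastase, had 0, 27 and 49 counts at 2 months and 9, 13 and 6 at 18 months (edgeR adjusted p = 0.32). The monocyte and macrophage list was thus higher in the 18-month libraries while Mmp12 was low in all 6.

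**Figure D5:**
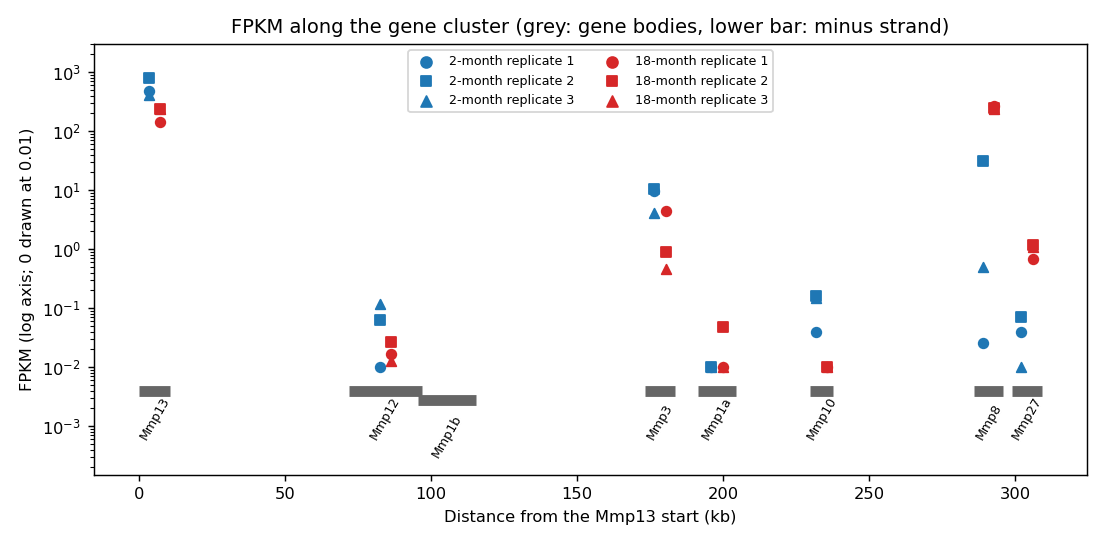
FPKM (log axis, 0 drawn at 0.01) of the metalloproteinase cluster genes with a row in the table, against distance from the Mmp13 start in kb. Blue marks 2-month and red 18-month libraries, and grey bars show gene bodies. Blue lies above red for Mmp13 at the left, and red above blue for Mmp8 and Mmp27 at the right.

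Of the 13 other family members listed, 10 had a row in the table and 6 passed the filter. Mmp27 was the only one called higher, and Mmp15, which encodes MT2-MMP, the only one called lower (log2 fold change -2.06, standard error 0.45, edgeR adjusted p = 0.013). Mmp23 had the highest mean FPKM of these, from 0.620 to 4.59 at 2 months and from 2.30 to 2.76 at 18 months. It was not called with all libraries (log2 fold change 0.18, edgeR adjusted p = 0.84) but was called higher without 2-month replicate 2 (1.27, edgeR adjusted p = 0.030).

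Of 7 listed genes that hold the enzymes in check, 6 were tested, of which 5 were called lower (Reck, Timp1, Timp2, Timp3 and Timp4) and 0 higher, against 21.3% lower over all genes. A2m did not pass (log2 fold change -1.09, edgeR adjusted p = 0.30). Their median log2 fold change was -1.94, against -0.02 over all genes. At an unadjusted p-value below 0.05, 0 inhibitors were higher in edgeR, in DESeq2 and in limma. With the limits for a call, DESeq2 and limma also called 5 lower and 0 higher. Timp3, the matrix-bound inhibitor and the most abundant of them, fell from 153 ± 63.3 to 32.1 ± 15.5 FPKM (SD, n = 3 each; log2 fold change -2.36, edgeR adjusted p = 0.011). Timp1 fell from 47.0 ± 11.9 to 17.2 ± 3.36 FPKM (log2 fold change -1.52, edgeR adjusted p = 0.0037). Reck, a membrane-anchored inhibitor of MMP2, MMP9 and MMP14, fell from 44.8 ± 15.6 to 5.39 ± 2.01 FPKM (log2 fold change -3.16, edgeR adjusted p = 0.0027). The chondrocyte list was likewise lower in every 18-month library, as given above, and its part was not tested.

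Among activators and the plasminogen system, Plaur, the urokinase receptor of myeloid and other cells, was called higher, and Furin, Pcsk6 and Plat were called lower. Plau, which encodes urokinase, was called higher as well with DESeq2, with limma and without 2-month replicate 2, but not in the edgeR test of all libraries (log2 fold change 1.97, adjusted p = 0.11). Pcsk6, a proprotein convertase that was the most abundant of the list, fell from 321 ± 101 to 6.76 ± 4.45 FPKM (log2 fold change -5.68, edgeR adjusted p = 0.0018). Plaur rose from 3.32 ± 1.55 to 28.4 ± 2.80 FPKM (log2 fold change 3.04, edgeR adjusted p = 0.0016). Furin, which opens the precursors of MMP11 and the membrane-type enzymes, had a log2 fold change of -1.32 (edgeR adjusted p = 0.0024).

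Of 12 listed transcription factors with known roles at metalloproteinase promoters, 11 were tested, of which 2 were called lower (Runx2 and Ets2) and 0 higher, around a median log2 fold change of 0.06, where 21.3% of all genes tested were called lower. Ets2, at -1.02, lay at the limit on the fold change, and DESeq2 and limma called Runx2 alone. At an unadjusted p-value below 0.05, 2 were higher in edgeR, 2 in DESeq2 and 2 in limma. With the limits for a call, DESeq2 and limma called 0 higher, as did edgeR. Runx2, which drives Mmp13 in hypertrophic chondrocytes and osteoblasts, fell from 20.4 ± 2.01 to 5.49 ± 0.304 FPKM (log2 fold change -1.97, standard error 0.10, edgeR adjusted p = 0.00071). The chondrocyte and hypertrophic chondrocyte lists were lower in every 18-month library as well, and their part was not tested. Of the AP-1 subunits none was called. Jund, the most abundant of the list, had 41.5 ± 5.08 FPKM at 2 months and 22.6 ± 3.66 at 18 months, with a log2 fold change of -0.96 (edgeR adjusted p = 0.0075), just under the limit on the fold change. For Fos the log2 fold change was 0.35 (standard error 0.63, edgeR adjusted p = 0.66).

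Of 8 receptors and surface proteins that induce, bind or clear these enzymes, 6 were called lower and 0 higher, against 21.3% lower over all genes. The chondrocyte list was lower in every 18-month library here too, and its part was not tested. The list of receptors had a median log2 fold change of -1.82. At an unadjusted p-value below 0.05, 1 was higher in edgeR, 1 in DESeq2 and 1 in limma. In edgeR this was Tnfrsf1a, which also passed the adjusted limit (edgeR adjusted p = 0.0025). Its log2 fold change of 0.82 was under the limit on the fold change. DESeq2 and limma called 0 higher as well. Bsg, also named EMMPRIN, was the most abundant and fell from 390.1 ± 110 to 148 ± 3.55 FPKM (log2 fold change -1.48, edgeR adjusted p = 0.0058). Sdc4, a cell surface proteoglycan, fell most, from 210.3 ± 60.0 to 20.8 ± 9.57 FPKM (log2 fold change -3.44, edgeR adjusted p = 0.0024).

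The genes whose pattern over the 6 libraries lay nearest to each member were sought among 13900 tested genes whose mean FPKM reached 1. The measure was the root mean square difference in log2 CPM after each gene was centred on its own mean, so a smaller value means a closer pattern. Nearest to Mmp8 were Ltf (0.13), Cd177 (0.22) and Padi4 (0.24), of which Ltf and Cd177 are in the neutrophil list. Nearest to Mmp25 were Plac8 (0.11), Csf3r (0.14) and Trim30b (0.15). For Mmp9 the nearest were Angpt2 (0.22), Atp6v0d2 (0.28) and Gbp9 (0.28), and Atp6v0d2 is in the osteoclast list. For Mmp13 the nearest were Myl4 (0.20), Fam20c (0.22) and Mpv17l (0.23), and for Mmp11 they were Gprc5c (0.10), Ahdc1 (0.13) and Ddr2 (0.13). Mmp14 lay nearest to Col4a1 (0.12), Col18a1 (0.18) and Tsku (0.18), Mmp2 to Ptpn13 (0.14), Rai14 (0.18) and Nid1 (0.22), and Mmp16 to Ano1 (0.21), Tsku (0.21) and Bmp1 (0.23). Mmp3 and Mmp19 had no close match, with the nearest genes at 0.43 (L3hypdh) and 0.33 (Gm7390). Between members, the closest pairs were Mmp14 with Mmp16 (0.24), Mmp2 with Mmp14 (0.29), Mmp2 with Mmp16 (0.51) and Mmp8 with Mmp25 (0.52). The member next nearest to Mmp8 was Mmp9, at 2.62.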

How the data were processed

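Articular cartilage was measured in 3 libraries at 2 months and 3 at 18 months. The libraries were poly(A)-selected, strand-specific and carried molecular identifiers. The submitters' processing notes name cutadapt 1.9, HISAT2 2.0.4, UMI-tools, StringTie 1.3.4d, DESeq2 and edgeR. The build and the strand setting of the counting are not given in the sources used here, but 91.3% of the 33865 genes found in GENCODE M21 had the same start and end in it, and positions are given on GRCm38. The authors deposited raw counts per gene and library, and FPKM values scaled by transcript length and library. All count and FPKM columns were used, with 0 columns of values per library left out.

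The quasi-likelihood test of edgeR 4.0.16 (R 4.3.3) was run on these counts after TMM scaling and filterByExpr, with Benjamini-Hochberg adjustment over 20397 genes. Standard errors were taken as the absolute log2 fold change over √F. Alternatives used limma 3.58.1 on FPKM and DESeq2 1.42.0. Simulated counts were drawn independently for each gene, from its mean over both ages and its fitted spread. They held no shift shared by the genes of a library, as in 2-month replicate 2, so recovery in the real data can differ. In the simulation edgeR recovered 17 of 67 genes changed by 2 on the log2 scale, 37 of 67 changed by 3 and 48 of 66 changed by 4. It made 3 false calls over 20397 genes. DESeq2 made 123 false calls. Intervals and floors cover counting error only. Libraries of one age differed by 6.32 to 48.7 times the counting noise (median chi-square per gene) and were kept apart.

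The members and lists were chosen with earlier results of these data known. Named are all members, the most abundant and most changed called genes of each list, Timp1, Timp3 and the 3 nearest genes by pattern. Genes in counts of 5 or fewer, and Mmp10, Mmp12, Mmp1a, Furin, Plau, A2m, Fos and Tnfrsf1a, were added after their values were seen. A gene of the list of activators and the plasminogen system is not reported here, so no count or median is given for that list.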

Additional observations from a re-analysis of the deposited data

How the results depend on the processing

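The log2 fold changes of the members kept their direction in the 10 settings that used all libraries. Leaving out 2-month replicate 2 turned Mmp2 to 0.51 and Mmp14 to 0.0061. The count of members called higher was 1 with DESeq2, 2 with limma on log2(FPKM + 0.1), 3 with a pseudocount of 1 and 2 with FPKM rescaled to TPM, and it ranged from 0 to 2 with 1 library left out. The count called lower was 1 in a test against a fold change of 2, where Mmp13 (-1.50) was lost. In the other lists, 11 genes were called lower in that test, and 2 to 4 were called higher with 1 library left out. Past the threshold were Mmp3 with DESeq2 (-2.09), limma (-2.48), a pseudocount of 1 (-1.80) and TPM (-2.99), Mmp8 in the same order (4.63, 7.54, 6.08 and 7.57), Mmp25 with limma (5.48), a pseudocount of 1 (3.26) and TPM (6.10), and Mmp19 with a pseudocount of 1 (1.10). With 1 library left out, the range was -1.06 to 0.51 for Mmp2, -3.62 to -1.68 for Mmp3, 3.97 to 9.76 for Mmp8, -1.42 to 0.0061 for Mmp14 and 3.75 to 10.13 for Mmp25. The causes of these changes were not tested. TPM moved the median of all genes to -0.33, and the share of called genes that were higher was 34.8% with TPM, 57.8% with a pseudocount of 1 and 33.9% in the test against a fold change of 2, against 41.2% in the edgeR test of all libraries. Replicate numbers did not pair the libraries (correlation of same-numbered deviations 0.03, 0.04 and -0.02), and of the members a replicate block changed the call of Mmp3 alone (-2.70). With 3 libraries an age, the standard error was 0.30 for Mmp11, the smallest of the 10, but 1.57 for Mmp9, 1.94 for Mmp25 and 2.14 for Mmp8, and Mmp25 rested on 0 and 6 counts in 2-month replicates 1 and 3.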

Other observations

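The 10 genes together took 0.154%, 0.497% and 0.169% of the counts in the 2-month libraries and 0.249%, 0.270% and 0.268% in the 18-month libraries, so 2-month replicate 2 was above all others. Myh4 was the only gene of the marker lists without a count in all 3 libraries of an age, at 18 months. The list of synovial and tendon fibroblast markers took 0.0521% to 0.0938% of the counts at 2 months and 0.0193% to 0.0280% at 18 months. B lymphocyte markers took 0.000190% to 0.0182% and 0.0135% to 0.0169%, and skeletal muscle markers 0.00103% to 0.00508% and 0.000513% to 0.000707%.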
